A study of Mus musculus with 2 samples.

Results

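Chromatin accessibility at the collagen genes other than collagen IV was described in single-nucleus ATAC-seq of embryonic mouse kidneys. The members were all protein-coding genes of the GENCODE M21 annotation (mm10) named Col, a number, a and a number, with the Col4a genes left out. This gave 38 genes of 21938, of which 35 had at least 1 peak region found in both libraries. Col7a1 had 2 peaks in the Enl-WT library alone, Col11a2 had 1 peak in the Enl-WT library alone and Col10a1 had none, so no value is given for these 3 genes. The choice of genes used names and no measured value.

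Single-nucleus ATAC-seq counts the cuts that a transposase makes in open chromatin, nucleus by nucleus. ENL is a reader of histone acetylation, and the study asked what a Wilms tumour variant of ENL does to the developing kidney. The Enl-T1 library came from E15.5 kidneys of Enl flox-T1/+ Wt1 GFPCre/+ embryos, which carry 1 conditional copy of the T1 insertion that Cre switches on by inverting an exon. The Enl-WT library came from E15.5 kidneys of Enl +/+ Wt1 GFPCre/+ embryos. Both genotypes carry Wt1 GFPCre, so Cre was present and 1 copy of Wt1 was inactive in both groups. Cre driven from Wt1 acts in the nephron and stromal lineages and not in every kidney cell. The sources used here do not say how many embryos each library pooled. Accessibility counts cannot check the knock-in itself.

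Each group was 1 library, so no difference between Enl-WT and Enl-T1 has a replicate check and no p-value is given. The Enl-WT library held 9628 barcodes and the Enl-T1 library 13376, of which 9472 (98.4%) and 12635 (94.5%) had between 2000 and 100000 counts and were kept. Enl-WT nuclei were deeper, with a median of 14789.5 counts against 8753 in Enl-T1 and 138015168 against 109444579 counts in all. The libraries shared 169 barcode sequences. Levels are given as CPM, the counts in the regions of a gene scaled by the counts of the same nuclei in all shared regions. Ratios are log2 of Enl-T1 over Enl-WT, and brackets hold 95% intervals that cover counting error only. A gene was called past 1.5-fold where its ratio reached that size and the libraries together held at least 100 fragments in the nuclei compared. Fragments were taken as counts divided by 2. Medians over the collagen genes are set beside the median of all protein-coding genes. They are descriptions, because genes are not replicates.

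Collagens are triple-helical proteins of the extracellular matrix. Collagens I, III and V build the fibrils of connective tissue, fibril-associated collagens decorate them, collagen VI forms beaded filaments, collagen VIII forms open networks, and transmembrane collagens span the cell surface. In the developing kidney the interstitial stroma surrounds the nephron progenitors and the branching ureteric epithelium and is known as a source of fibrillar matrix, while collagens XV and XVIII belong to basement membrane zones.

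The shared peaks gave 317 regions within the collagen genes or up to 2 kb upstream, and 59 of them lay within 2 kb of a start site. The 250 bases upstream of the RefSeq starts of Col1a2 (chr6:4505368-4505617, plus strand) and of Col3a1 (chr1:45311288-45311537, plus strand) are shown as examples. Both are fibril-forming genes whose start sites were more open in stroma-like than in nephron progenitor-like nuclei. The window of Col1a2 lies inside the GENCODE gene, which begins at chr6:4504814. RefSeq promoters on GRCm38.p6 were found for 30 of the 38 genes, as 33 sequences. Col1a1, whose start region also differed between these classes, and Col2a1 are named without a sequence. Capitals mark matches to the motifs searched.
Col1a2 promoter: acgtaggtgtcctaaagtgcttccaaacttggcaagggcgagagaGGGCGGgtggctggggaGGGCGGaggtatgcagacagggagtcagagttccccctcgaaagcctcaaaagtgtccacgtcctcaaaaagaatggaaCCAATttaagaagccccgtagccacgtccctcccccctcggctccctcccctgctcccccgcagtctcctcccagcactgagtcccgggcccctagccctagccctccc
Col3a1 promoter: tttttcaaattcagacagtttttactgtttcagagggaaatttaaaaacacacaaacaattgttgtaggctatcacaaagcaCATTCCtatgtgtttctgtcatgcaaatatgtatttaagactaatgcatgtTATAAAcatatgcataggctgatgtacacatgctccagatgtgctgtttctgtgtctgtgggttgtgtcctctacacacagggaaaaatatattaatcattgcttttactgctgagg

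In the Col1a2 promoter the capitals mark GGGCGG at -205 and -188 and CCAAT at -109, counted from the RefSeq start site. In the Col3a1 promoter they mark GGAATG on the reverse strand at -168 and TATAAA at -117. Among the 33 collagen promoters GGGCGG was found on either strand in 19 (57.6%, against 32.7% of 32851 promoters). The shares for the other motifs lay near those of all promoters. TATAAA was in 5 (15.2% against 12.4%), CCAAT in 10 (30.3% against 33.8%), GGAATG in 4 (12.1% against 12.6%), TAATTA in 2 (6.06% against 4.84%) and TGANTCA in 1 (3.03% against 6.75%). These matches describe letters in a window and do not show that a factor binds.

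The middle 200 bases of an intronic region of Col6a6 (chr9:105737213-105737412, plus strand) and of Col19a1 (chr1:24470772-24470971, plus strand) are shown because these 2 regions had the highest Enl-T1 to Enl-WT ratios of all collagen regions in stroma-like nuclei. Both genes lie on the minus strand. Capitals mark CCAAT, the only motif of the 6 found in either sequence.
Col6a6 intronic region: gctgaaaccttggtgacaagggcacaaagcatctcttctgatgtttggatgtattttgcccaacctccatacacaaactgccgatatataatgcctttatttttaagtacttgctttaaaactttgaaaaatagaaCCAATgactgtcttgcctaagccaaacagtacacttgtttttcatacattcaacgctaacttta
Col19a1 intronic region: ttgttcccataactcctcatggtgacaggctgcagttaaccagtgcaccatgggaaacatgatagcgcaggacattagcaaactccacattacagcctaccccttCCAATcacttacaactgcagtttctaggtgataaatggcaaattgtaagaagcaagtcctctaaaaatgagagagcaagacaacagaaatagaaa

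Among the centres of the 258 collagen regions beyond 2 kb of a start site, TGANTCA was found in 30 (11.6%, against 7.83% of 89938 such centres), TATAAA in 37 (14.3% against 11.2%), GGAATG in 40 (beside 13.5% of all), CCAAT in 50 (19.4% against 22.1%), GGGCGG in 11 (4.26% against 7.23%) and TAATTA in 10 (3.88% against 5.75%).

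Nuclei were grouped by clustering that left out all collagen regions, and clusters were named from markers among which there was no collagen gene. The Enl-WT and Enl-T1 libraries held 2829 and 4733 stroma-like nuclei, 1452 and 4080 nephron progenitor-like nuclei, 974 and 1886 ureteric epithelium-like nuclei and 938 and 942 endothelial-like nuclei. The nephron classes numbered 1303 and 210 nuclei (early nephron epithelium-like), 548 and 51 (distal tubule or loop-like), 686 and 12 (proximal tubule-like) and 285 and 4 (podocyte-like). Different clusters held the nephron progenitor-like nuclei of the 2 libraries: 1439 of the 1452 Enl-WT nuclei lay in a cluster with 90 Enl-T1 nuclei, while the other Enl-T1 nuclei lay in 2 clusters with 1 and 12 Enl-WT nuclei. Each ratio in that class therefore also compares different clusters. The name was marginal for 2833 of the 4080 Enl-T1 nuclei. Progenitor markers in their cluster lay 0.46 above the median cluster on the log2 scale, where 0.4 was needed, with 5 markers raised. In the cluster of the 1439 Enl-WT nuclei they lay 0.90 above it, with 9 raised. In the cluster of 1157 Enl-T1 nuclei they lay 0.72 above it, with 8 raised. Stroma-like nuclei shared more clusters, with 2797 and 3083 nuclei in clusters that had at least 50 of each library.

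The collagen genes were most open in stroma-like nuclei. In Enl-WT, 21 of the 35 measured genes (60%) had their highest CPM among all classes of at least 50 nuclei in stroma-like nuclei, where 7.58% of all genes did. In Enl-T1 the count was 23 of 35 (65.7%), beside 6.94% of all genes. The class with the highest level was the same in both libraries for 30 of 35 genes. Podocyte-like and proximal tubule-like nuclei entered this ranking in Enl-WT alone, where Col17a1 and Col22a1 were highest in the former and Col18a1 in the latter. Erythroid-like nuclei, with 24 in Enl-WT and 52 in Enl-T1, entered it in Enl-T1 alone. They were highest for 0 collagen genes and for 32.6% of all genes. The shares of all genes in Enl-WT and Enl-T1 therefore rest on different sets of classes. Against nephron progenitor-like nuclei, the median collagen gene was 0.83 higher on the log2 scale in stroma-like nuclei of Enl-WT and 0.68 higher in Enl-T1, where the medians of all genes were -0.01 and -0.04.

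**Figure D1:**
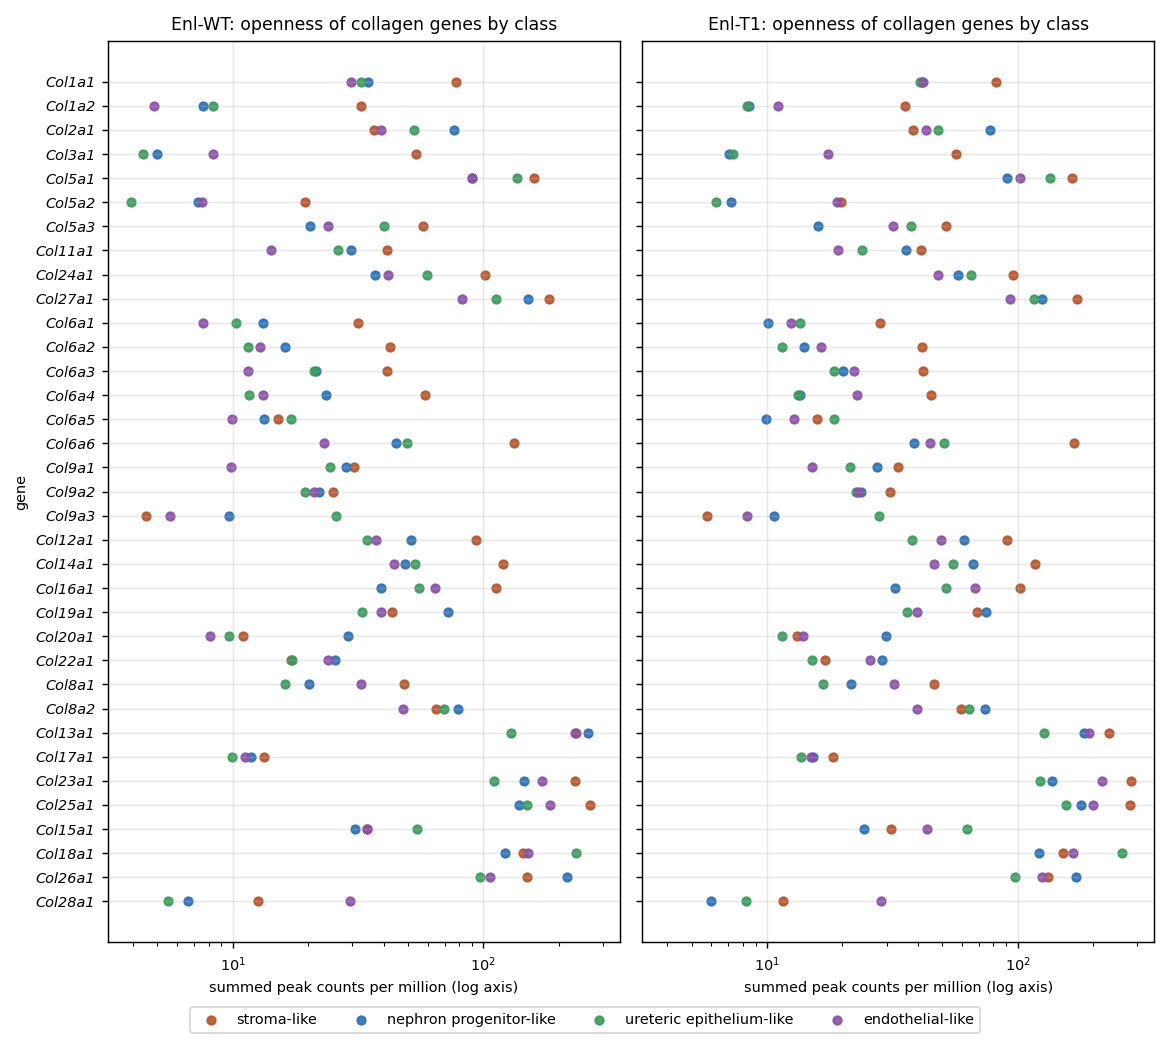
Level of each measured collagen gene (CPM, log axis) in stroma-like, nephron progenitor-like, ureteric epithelium-like and endothelial-like nuclei, with 1 panel for each library and 1 point for each class. Col1a1, Col1a2 and Col3a1 stand highest in stroma-like nuclei in both panels, Col2a1 and Col20a1 in nephron progenitor-like nuclei and Col9a3 in ureteric epithelium-like nuclei.

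Of the 35 genes, 19 were past 1.5-fold higher and 5 past 1.5-fold lower in stroma-like than in nephron progenitor-like nuclei of Enl-WT, where 8.16% and 14.2% of all genes were. In Enl-T1 the counts were 19 and 4, beside 8.14% and 13.3%. Against ureteric epithelium-like nuclei they were 21 and 3 in Enl-WT (10.4% and 16.1% of all genes) and 19 and 3 in Enl-T1 (9.56% and 15.6%). Against endothelial-like nuclei they were 19 and 1 in Enl-WT (10.8% and 10.4%) and 19 and 2 in Enl-T1 (8.37% and 9.29%). The medians over the collagen genes were 0.77 and 0.78 against ureteric epithelium-like nuclei and 0.81 and 0.60 against endothelial-like nuclei, in Enl-WT and Enl-T1 respectively. In each of these comparisons the collagen share on the higher side was above that of all genes.

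Col3a1 had the highest ratio of stroma-like to nephron progenitor-like nuclei of the 35 genes in both libraries. This gene (chr1:45311538-45349706), the chain of collagen III that assembles with collagen I in soft tissue, was at 54.1 CPM in stroma-like and 5.00 CPM in nephron progenitor-like nuclei of Enl-WT, a log2 ratio of 3.44 [3.01, 3.86]. In Enl-T1 it was at 56.8 and 7.08 CPM, a ratio of 3.0 [2.74, 3.27]. The gap was as wide against ureteric epithelium-like nuclei, with ratios of 3.63 and 2.96, and narrower against endothelial-like nuclei, with 2.69 and 1.69. Col3a1 was also among the 10 leading genes of 1 stroma-like cluster, although its regions took no part in the clustering.

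Col1a2 (chr6:4504814-4541544), the second chain of collagen I, was at 32.5 CPM in stroma-like and 7.57 CPM in nephron progenitor-like nuclei of Enl-WT, and at 35.6 and 8.50 CPM in Enl-T1. The log2 ratios were 2.1 [1.75, 2.47] and 2.07 [1.81, 2.32]. Col1a1 (chr11:94936224-94953042), the first chain of the same protein, differed less between these classes, with 77.7 against 34.6 CPM in Enl-WT and 81.9 against 41.5 CPM in Enl-T1. Its ratios were 1.17 [1.00, 1.34] and 0.98 [0.85, 1.11]. The 3 regions of Col1a1 were not alike. Its start region was at 29.7 and 31.2 CPM in stroma-like nuclei and at 3.99 and 5.76 CPM in nephron progenitor-like nuclei of Enl-WT and Enl-T1. The region centred 0.98 kb downstream of the start was at 39.8 and 41.6 CPM in stroma-like nuclei and at 22.7 and 29.3 CPM in nephron progenitor-like nuclei, so the start region separated the classes more.

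Several genes of other groups were also higher in stroma-like nuclei. In Enl-WT and Enl-T1 the stroma-like to nephron progenitor-like log2 ratios were 1.39 and 1.56 for Col6a2 and 1.56 and 2.12 for Col6a6, both chains of the collagen VI family. Col16a1, a fibril-associated collagen, had ratios of 1.53 and 1.66. Col14a1, a fibril-associated collagen that limits the growth of fibrils, had ratios of 1.31 [1.16, 1.45] and 0.82 [0.72, 0.92], and Col12a1, a related collagen of load-bearing tissue, had 0.86 and 0.57.

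A minority of the collagen genes were most open elsewhere. Col2a1 (chr15:97975602-98004695), the fibrillar collagen of cartilage, was highest in early nephron epithelium-like nuclei, and its stroma-like to nephron progenitor-like ratio was -1.06 [-1.22, -0.91] in Enl-WT and -1.02 [-1.16, -0.89] in Enl-T1. Col20a1, a fibril-associated collagen, had ratios of -1.39 and -1.18 and was highest in nephron progenitor-like nuclei, as were Col26a1, Col8a2 and Col19a1 in Enl-WT and Enl-T1 and Col13a1 in Enl-WT. Col9a3, a chain of the cartilage collagen IX, was highest in ureteric epithelium-like nuclei, with stroma-like to ureteric log2 ratios of -2.52 [-2.91, -2.12] and -2.28. Col28a1, a collagen with von Willebrand factor A domains, was highest in endothelial-like nuclei, with stroma-like to endothelial log2 ratios of -1.22 [-1.52, -0.91] and -1.30. Col15a1, of basement membrane zones, was highest in immune-like nuclei of Enl-WT and Enl-T1, which numbered 99 and 164. That small class was highest for 37.8% and 20.2% of all genes, and Col15a1 had under 100 fragments in it. Over the 4 broad classes Col15a1 was highest in ureteric epithelium-like nuclei of Enl-WT and Enl-T1.

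The pattern was seen across the stroma-like, nephron progenitor-like, ureteric epithelium-like and endothelial-like classes, at start sites and beyond them. Over these 4 broad classes alone, 23 of 35 genes (65.7%, beside 17.7% of all genes) were highest in stroma-like nuclei of Enl-WT and 24 of 35 (68.6%, beside 20%) in those of Enl-T1. Of single regions, 138 of 271 measured (50.9%) were highest in stroma-like nuclei of Enl-WT, beside 27.5% of all regions. In Enl-T1 the count was 137 of 299 (45.8%), beside 27.1%. Within 2 kb of a start site the counts were 34 of 56 (60.7%, beside 18% of all such regions) and 28 of 57 (49.1%, beside 20.6%). Beyond 2 kb they were 104 of 215 (48.4%, beside 30.1%) and 109 of 242 (45.0%, beside 28.6%). Taken per kb of peak, the most open collagen genes in stroma-like nuclei were Col6a2, with 46.9 and 45.3 CPM per kb, Col1a2, with 35.3 and 39.6, and Col1a1, with 28.6 and 33.2, against a median collagen gene at 8.40 and 10.1 CPM per kb.

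Between the libraries, the collagen genes of stroma-like nuclei differed little. The median log2 ratio of Enl-T1 to Enl-WT over the 35 genes was 0.03, beside 0.00 over all genes. Of the 35, 1 was past 1.5-fold higher and 0 past 1.5-fold lower, where 0.962% and 0.802% of all genes were. The counting interval lay above 0 for 6 genes, below 0 for 5 and held 0 for 24. No such count over all genes is given beside these. With a median interval width of 0.27 on the log2 scale, counting error was narrow compared with the 1.5-fold mark, but how far 2 libraries of 1 genotype differ was not measured. Interstitial stroma markers summed to 1325 and 1337 CPM in these nuclei, and 8 of 14 were higher in Enl-T1.

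**Figure D2:**
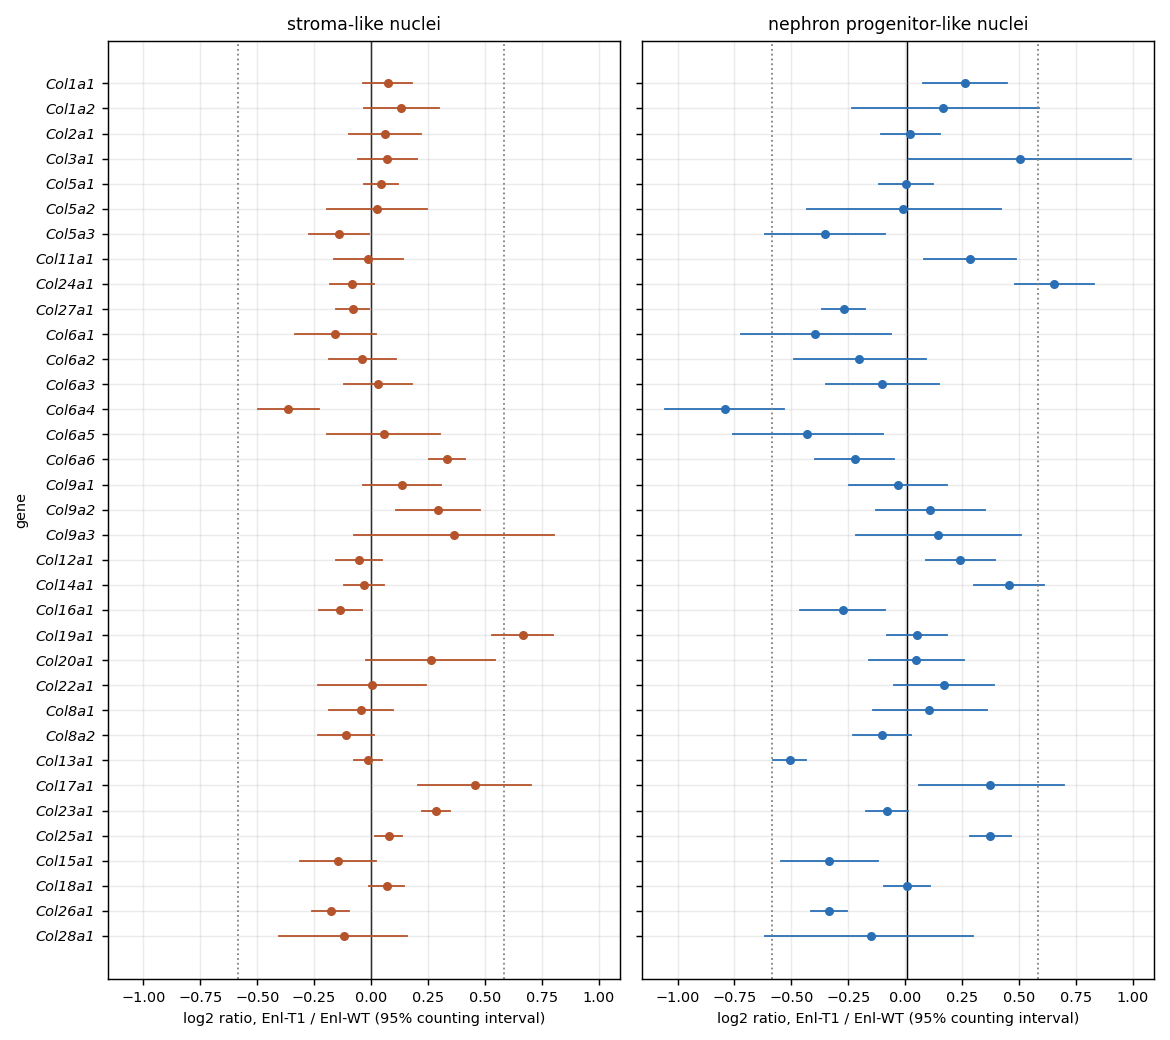
Log2 ratio of Enl-T1 to Enl-WT for each of the 35 measured collagen genes in stroma-like and nephron progenitor-like nuclei. Bars are 95% intervals of counting error, the black line is the median of all genes and the dotted lines mark 1.5-fold. Col19a1 lies past the mark in stroma-like nuclei, and Col24a1 and Col6a4 lie past it on opposite sides in nephron progenitor-like nuclei.

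The gene past the mark was Col19a1 (chr1:24261890-24587472), a fibril-associated collagen of basement membrane zones, with 43.3 CPM in Enl-WT and 68.7 CPM in Enl-T1, a log2 ratio of 0.67 [0.53, 0.80]. In the clusters that held at least 50 nuclei of each library it was at 43.3 and 59.3 CPM, a ratio of 0.45 [0.30, 0.60], so there it was below the 1.5-fold mark. The next highest were Col17a1, a transmembrane collagen of epithelial attachment, at 13.3 and 18.3 CPM (0.46 [0.21, 0.70]), Col9a3 at 4.49 and 5.78 CPM (0.36 [-0.07, 0.80]) and Col6a6 at 133 and 167 CPM (0.33 [0.25, 0.41]). The interval of Col9a3 held 0, and those of Col17a1 and Col6a6 lay above it. In the clusters that held at least 50 nuclei of each library, Col17a1 was at 13.3 and 16.6 CPM (0.33 [0.04, 0.60]). There Col6a6 was at 132 and 157 CPM (0.25 [0.16, 0.34]). By single cluster Col6a6 was at 135 and 134, 134 and 167, 208 and 193, and 102 and 111 CPM in Enl-WT and Enl-T1. Its ratio in the class therefore did not hold alike in each cluster.

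On the lower side, Col6a4 was at 58.3 CPM in Enl-WT and 45.3 CPM in Enl-T1, a log2 ratio of -0.36 [-0.50, -0.23]. In the clusters that held at least 50 nuclei of each library, pooled, it was at 58.7 and 52.4 CPM, a smaller ratio of -0.17 [-0.31, -0.02]. By single cluster Col6a4 was at 60.8 and 55.6, 64.1 and 53.3, 79.1 and 53.3, and 45.9 and 32.0 CPM. It was thus lower in Enl-T1 in each of them, the last from 62 Enl-T1 counts. Col26a1, a small collagen first described in reproductive tissue, was at 149 and 132 CPM (-0.18 [-0.26, -0.10]), and Col6a1 was at 31.5 and 28.3 CPM (-0.16 [-0.33, 0.02]). Col15a1 was at 34.5 and 31.1 CPM (-0.15 [-0.31, 0.02]). Col6a4 and Col26a1 had intervals below 0, and neither reached 1.5-fold.

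The genes of the main fibrils had ratios near 0 in stroma-like nuclei. Col1a1 was at 77.7 CPM in Enl-WT and 81.9 CPM in Enl-T1, a log2 ratio of 0.07 [-0.03, 0.18]. Col1a2 had a ratio of 0.13 [-0.03, 0.30], and Col3a1 one of 0.07 [-0.06, 0.20]. Col5a1, whose product starts and limits fibril growth, was at 159.9 and 165 CPM (0.04 [-0.03, 0.12]), and Col5a2, its partner chain, was at 19.4 and 19.7 CPM (0.03 [-0.19, 0.25]), though with every peak of a library its ratio was 0.89. Col2a1 and Col11a1, chains of cartilage fibrils, had ratios of 0.06 and -0.01. Over the 10 measured fibril-forming genes the ratios ran from -0.14 to 0.13.

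The remaining groups held both signs. Over the 6 genes of the collagen VI family the stroma-like ratios ran from -0.36 for Col6a4 to 0.33 for Col6a6, with Col6a2 at -0.04 and Col6a3 at 0.03. The 9 fibril-associated genes ran from -0.13 to 0.67 with a median of 0.14, with Col9a1 at 0.14, Col12a1 at -0.05 and Col14a1 at -0.03. The 4 transmembrane genes had a median of 0.18, with Col13a1 at 234.5 and 232 CPM (-0.01 [-0.08, 0.05]) and Col23a1 at 233 and 284 CPM (0.29 [0.23, 0.35]). Col18a1, the source of endostatin, had a ratio of 0.07, and Col8a1, a network-forming collagen, one of -0.05.

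Among nephron progenitor-like nuclei the median log2 ratio of the 35 genes was 0.00, beside 0.01 over all genes. The name was marginal for most Enl-T1 nuclei of this class, so its ratios may not compare like nuclei. Of the 35, 1 gene was past 1.5-fold higher and 1 past 1.5-fold lower, where 2% and 2.71% of all genes were. The spread was wider than in stroma-like nuclei, with the counting interval above 0 for 8 genes, below 0 for 10 and holding 0 for 17. Nephron progenitor markers summed to 689 CPM in Enl-WT and 527 CPM in Enl-T1, with 2 of 12 higher in Enl-T1. Early nephron markers summed to 413 and 566 CPM, with 8 of 12 higher in Enl-T1, and interstitial stroma markers to 974 and 965 CPM, with 5 of 14 higher. The part of these marker shifts, and of the different clusters, in the collagen ratios of this class was not tested, but values within the 1 cluster that held both libraries are given beside the genes that were past the mark.

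Col24a1 (chr3:145292472-145552011), a minor fibril-forming collagen, was at 36.8 CPM in Enl-WT and 57.9 CPM in Enl-T1, a log2 ratio of 0.65 [0.48, 0.83]. Within the cluster of both libraries it was at 36.5 and 56.7 CPM, a ratio of 0.64 [0.01, 1.26]. It lay under the mark with at least 5000 counts per nucleus, at 0.55, and with each library clustered alone, at 0.47. Col6a4 (chr9:105989454-106096783) was at 23.5 and 13.6 CPM, a ratio of -0.79 [-1.05, -0.53], but within that cluster the ratio was 0.04 [-1.03, 0.95], and in windows around start sites it was 0.039. The lower level of Col6a4 was therefore not seen within the shared cluster, whose 90 Enl-T1 nuclei leave a wide interval.

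The next highest in nephron progenitor-like nuclei were Col3a1 at 5.00 and 7.08 CPM (0.50 [0.02, 0.99]), Col14a1 at 48.5 and 66.5 CPM (0.46 [0.30, 0.61]), and Col25a1, a transmembrane collagen known from neurons, at 138 and 179 CPM (0.37 [0.28, 0.47]). The next lowest were Col13a1 at 261 and 184 CPM (-0.51 [-0.58, -0.43]), Col6a5 at 13.3 and 9.87 CPM (-0.43 [-0.76, -0.10]) and Col6a1 at 13.2 and 10.1 CPM (-0.40 [-0.72, -0.06]). Within the shared cluster Col13a1 was at 262 and 281 CPM, a ratio of 0.10 [-0.17, 0.38], and so did not share the sign of the whole class.

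All 6 genes of the collagen VI family had ratios below 0 in nephron progenitor-like nuclei, from -0.79 for Col6a4 to -0.10 for Col6a3, with a median of -0.31. Col6a2 had -0.20 and Col6a6 had -0.22 [-0.39, -0.05]. In the shared cluster Col6a2 and Col6a6 still had ratios below 0, at -0.43 and -0.46, and Col6a1, Col6a3, Col6a4 and Col6a5 did not, and the intervals of all 6 held 0. The genes of collagen I had ratios above 0, with Col1a1 at 34.6 and 41.5 CPM (0.26 [0.08, 0.45]) and Col1a2 at 7.57 and 8.50 CPM (0.17 [-0.23, 0.59]). Col11a1 was at 29.5 and 36.0 CPM (0.29 [0.08, 0.49]) and Col12a1 at 51.6 and 61.1 CPM (0.24 [0.09, 0.39]). Col5a1, Col2a1, Col18a1, Col5a2 and Col9a1 had ratios of 0.00, 0.02, 0.01, -0.01 and -0.03. Col15a1 had -0.33 [-0.54, -0.12], and Col8a1 had 0.11 [-0.14, 0.36].

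In ureteric epithelium-like nuclei 33 genes were measured and 0 were past 1.5-fold in either direction, where 0.739% of all genes were higher and 0.476% lower. The median log2 ratio was 0.06, beside -0.02 over all genes, and 22 of 33 ratios were above 0 (66.7%, beside 45.0% of all genes). The highest were Col28a1 at 5.53 and 8.25 CPM (0.58 [0.00, 1.20]), Col17a1 at 9.89 and 13.6 CPM (0.46 [0.01, 0.92]), Col6a1 at 10.3 and 13.5 CPM (0.39 [-0.06, 0.83]) and Col1a1 at 32.4 and 40.7 CPM (0.33 [0.08, 0.58]). With every peak of a library in place of shared regions, the ratio of Col28a1 was -1.09. The lowest were Col9a1, Col6a3 and Col22a1, at -0.19 each, and Col2a1 at 53.0 and 47.9 CPM (-0.15 [-0.36, 0.06]). All 4 of the lowest had intervals that held 0.

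Col18a1 (chr10:77052178-77166548), a proteoglycan of epithelial basement membranes, was at 235 and 261 CPM in ureteric epithelium-like nuclei (0.15 [0.06, 0.25]), and Col15a1 was at 54.1 and 63.0 CPM (0.22 [0.03, 0.42]). The levels of Col18a1 in this class lay above those in stroma-like nuclei in both libraries, by 0.70 and 0.78 on the log2 scale. Col12a1, Col14a1, Col8a1 and Col1a2 had ratios of 0.15, 0.06, 0.06 and 0.00. Col5a1, Col6a2, Col13a1 and Col11a1 had -0.01, -0.01, -0.01 and -0.14. Col3a1 and Col5a2 had under 100 fragments in these nuclei and are not counted among the 33. Col3a1 was at 4.37 and 7.28 CPM, and Col5a2 at 3.93 and 6.26 CPM.

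Endothelial-like nuclei had the highest median of the 4 broad classes. The median ratio over 27 measured genes was 0.18, beside -0.04 over all genes, and 23 of 27 ratios were above 0 (85.2%, beside 43.2% of all genes). Of the 27, 3 genes were past 1.5-fold higher and 0 past 1.5-fold lower, where 1.83% and 0.911% of all genes were. With every peak of a library the counts were 9 and 2 of 30 measured genes, and in start site windows both were 0 of 13. The shares of all genes past the mark under these 2 settings are not given. All 3 genes belong to the collagen VI family. Col6a6 was at 23.2 and 44.8 CPM (0.95 [0.59, 1.32]), Col6a3 at 11.5 and 22.1 CPM (0.95 [0.41, 1.46]) and Col6a4 at 13.2 and 22.8 CPM (0.79 [0.27, 1.28]).

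A shallow endothelial-like cluster of 183 Enl-WT and 336 Enl-T1 nuclei, with a median depth 0.33 of that of all nuclei, also scored for smooth muscle markers. Without it, 24 genes were measured, 0 were past 1.5-fold and the median ratio was 0.16. Col6a6 then had a ratio of 0.56 and so lay just under the mark, while Col6a3 and Col6a4 had ratios of 0.76 and 0.83 from too few fragments to be counted. As shares of nuclei thinned to 2000 counts, the median of the whole class was 0.020, beside -0.18 over all genes. In the class as a whole, interstitial stroma markers summed to 824 CPM in Enl-WT and 913 CPM in Enl-T1, with 11 of 14 higher in Enl-T1, and smooth muscle markers summed to 277 and 311 CPM, with 8 of 12 higher. Endothelial markers summed to 1541 and 1294 CPM, with 1 of 12 higher in Enl-T1. The part of stromal chromatin in the collagen ratios of this class was not tested.

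Among the other endothelial-like values, Col1a1 was at 29.6 and 41.9 CPM (0.50 [0.15, 0.85]) and Col11a1 at 14.2 and 19.3 CPM (0.44 [-0.08, 0.96]). Col12a1, Col15a1, Col6a2 and Col5a1 had ratios of 0.41, 0.35, 0.35 and 0.18, and Col2a1, Col18a1 and Col14a1 had 0.15, 0.14 and 0.07. The lowest were Col8a2, a network-forming collagen, at 47.8 and 39.5 CPM (-0.27 [-0.61, 0.05]), Col13a1 at 231 and 192 CPM (-0.27 [-0.41, -0.12]), Col28a1 at -0.04 and Col8a1 at -0.02. Col1a2, Col3a1, Col5a2, Col6a1 and Col9a1 had under 100 fragments here, with 4.85 and 11.1, 8.36 and 17.6, 7.51 and 19.1, 7.60 and 12.4, and 9.79 and 15.2 CPM in Enl-WT and Enl-T1.

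The other classes were smaller. In smooth muscle or ureteric stroma-like nuclei, a part of the stroma-like class with 323 Enl-WT and 1338 Enl-T1 nuclei, the median ratio over 31 genes was -0.10, with 1 gene past 1.5-fold higher and 1 lower, beside 2.33% and 1.08% of all genes. Col17a1 was at 12.4 and 20.5 CPM (0.73 [0.01, 1.46]) and Col6a4 at 72.1 and 42.2 CPM (-0.77 [-1.12, -0.44]). This part is contained in the stroma-like class, so its Col6a4 value is not a second observation. Of its Enl-T1 nuclei, 578 lay in a cluster with 29 Enl-WT nuclei, where Col6a4 was at 28.1 CPM in Enl-T1. In the cluster of this part with at least 50 nuclei of each library, Col6a4 was at 79.1 CPM in Enl-WT and 53.3 CPM in Enl-T1. The interstitial stroma-like nuclei, with 2506 and 3395 nuclei, had a median of 0.02, with 1 gene past the mark higher and 0 lower, beside 0.855% and 0.686% of all genes.

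Early nephron epithelium-like nuclei gave 30 genes with a median of -0.07, and 2 were past 1.5-fold higher and 1 lower, beside 2.64% and 3.67% of all genes. This class, too, was split differently in the libraries, with 850 Enl-WT and 26 Enl-T1 nuclei in 1 cluster and 453 and 184 in another. Its ratios therefore also compare different clusters. Col24a1 was at 38.9 and 64.4 CPM (0.73 [0.32, 1.13]). It was past the mark here as in nephron progenitor-like nuclei, and in neither class were the clusters alike. Col8a1 was at 16.4 and 25.1 CPM (0.62 [-0.07, 1.24]) and Col9a1 at 28.9 and 18.3 CPM (-0.66 [-1.40, 0.07]), both with intervals that held 0. Among distal tubule or loop-like nuclei, of which Enl-T1 had 51, 17 genes were measured, with Col19a1 and Col13a1 past the mark higher, at 1.11 and 0.85, and Col6a3 lower, at -0.63, beside 6.46% and 15.4% of all genes. Immune-like nuclei gave 1 measured gene, Col23a1 at -0.33 [-0.82, 0.16], with 0 past the mark in either direction, beside 1.84% and 3.82% of all genes.

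Over all kept nuclei together, 26 of 35 collagen genes had ratios above 0 (74.3%, beside 41.3% of all genes), with a median of 0.11 beside -0.03. Of the 35, 0 were past 1.5-fold in either direction, beside 0.985% higher and 0.896% lower among all genes. The highest were Col19a1 at 48.4 and 62.7 CPM (0.38) and Col6a6 at 66.5 and 86.0 CPM (0.37), and Col15a1 at -0.19 and Col18a1 at 179.8 and 158 CPM (-0.18) were the lowest. Stroma-like nuclei made up 29.9% of the Enl-WT library and 37.5% of the other. In these pooled values, more nuclei of a class and more open chromatin per nucleus cannot be told apart.

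**Figure D3:**
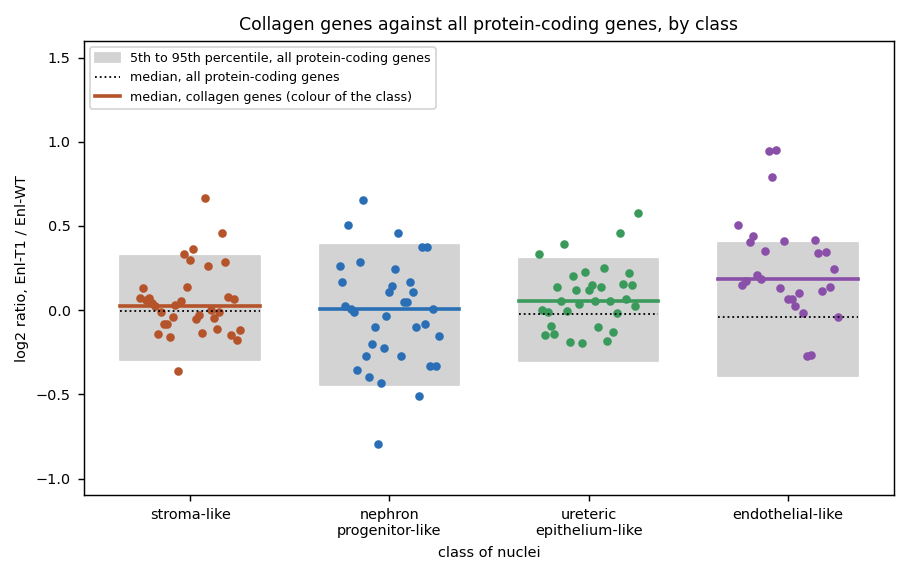
Log2 ratio of Enl-T1 to Enl-WT of each collagen gene (points) by class of nuclei, over the band that holds the middle 90% of all protein-coding genes in that class. In stroma-like nuclei 4 genes lie above the band and 1 below it, in nephron progenitor-like nuclei 3 and 2, in ureteric epithelium-like nuclei 4 and 0, and in endothelial-like nuclei 8 and 0.

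In stroma-like and nephron progenitor-like nuclei larger shares of regions than of genes were past 1.5-fold, among the collagen genes and among all genes alike. A region mostly holds only part of the fragments of its gene. The part of counting error in these larger shares was not tested. In stroma-like nuclei 249 collagen regions were measured, with 23 past 1.5-fold higher and 12 past 1.5-fold lower in Enl-T1, where 7.28% and 5.93% of all regions were. Their median ratio was 0.03, beside 0.02 over all regions. Of the 56 within 2 kb of a start site, 1 was higher and 1 lower, beside 1.93% and 2.21% of all such regions, and of the 193 beyond 22 were higher and 11 lower, beside 9.04% and 7.14%. Among all regions, too, the shares near start sites were lower. In nephron progenitor-like nuclei 165 were measured, with 23 higher and 26 lower, beside 13.2% and 13.3% of all regions. There, 3 of 46 regions near a start site were higher and 2 lower, beside 3.06% and 4.68% of all such regions. Of 87 regions measured in ureteric epithelium-like nuclei 8 were higher and 2 lower (4.13% and 2.58% of all regions), and of 26 in endothelial-like nuclei 0 were higher and 1 lower (1.3% and 6.96%).

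The highest ratio in stroma-like nuclei was at the intronic Col6a6 region whose centre is printed above (chr9:105736588-105738037), 90.85 kb into the gene, with 7.34 CPM in Enl-WT and 28.3 CPM in Enl-T1, from 257 and 1003 counts. The log2 ratio was 1.94 [1.66, 2.23], and in clusters of both libraries the region was at 7.0 and 24.1 CPM, a ratio of 1.79 [1.47, 2.1]. The Col19a1 intronic region (chr1:24470404-24471340) was at 2.83 and 10.2 CPM, a ratio of 1.85 [1.38, 2.32], and at 2.75 and 5.55 CPM in clusters of both libraries, a ratio of 1.01 [0.44, 1.57]. A Col25a1 intronic region (chr3:130160648-130161628) was at 3.74 and 8.28 CPM, a ratio of 1.15. The difference at Col6a6 was nearly as wide in clusters of both libraries, while those at Col19a1 and Col25a1 were smaller there, the last at 0.52.

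The lowest region in stroma-like nuclei overlapped an exon of Col6a4 (chr9:106033252-106034375), with 6.88 CPM in Enl-WT and 2.93 CPM in Enl-T1, a log2 ratio of -1.23 [-1.74, -0.76]. Intronic regions of Col25a1 (chr3:130310578-130311798) and Col27a1 (chr4:63237883-63239161) followed, at 6.83 and 3.49 CPM (-0.97) and at 9.08 and 4.93 CPM (-0.88). In clusters of both libraries these 3 ratios were -1.09, -1.21 and -0.94. Col25a1 therefore held regions at both ends of the order, while the gene as a whole had a ratio of 0.08.

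**Figure D4:**
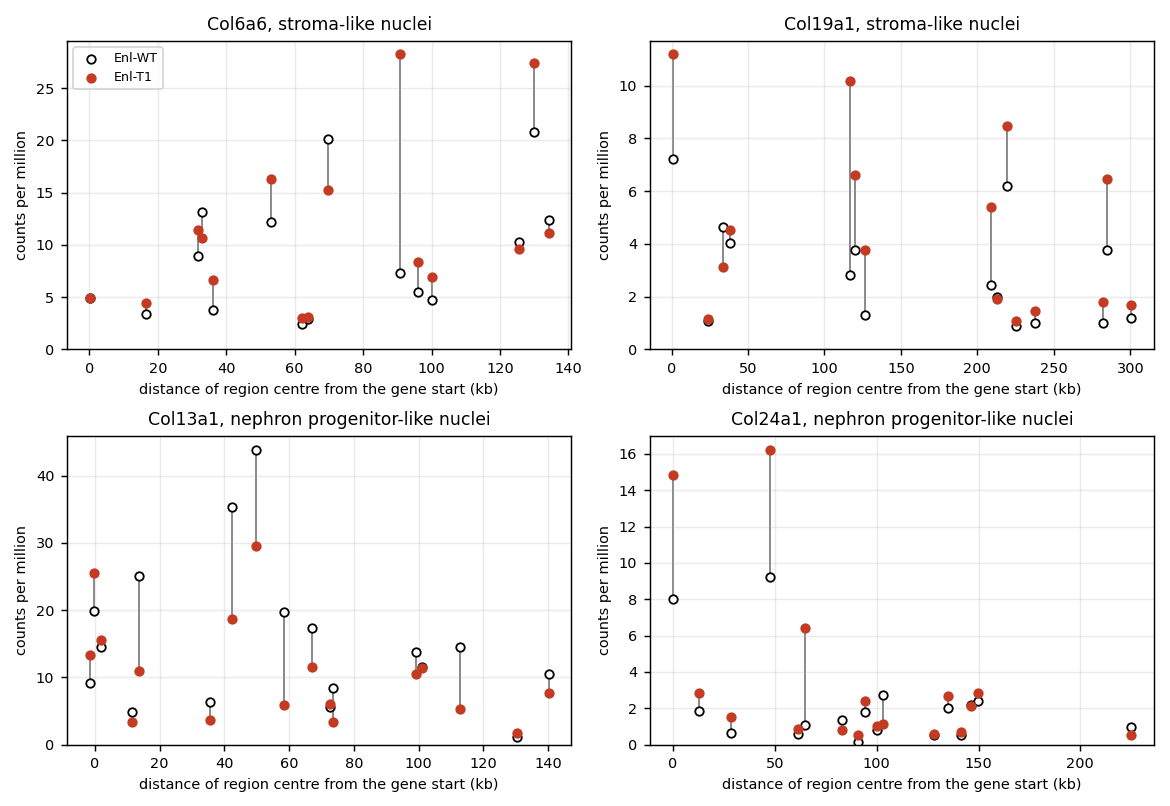
Accessibility (CPM) of each shared region against its distance in kb from the start of the gene, for Col6a6 and Col19a1 in stroma-like nuclei and for Col13a1 and Col24a1 in nephron progenitor-like nuclei. Open points are Enl-WT and filled points Enl-T1. A single region near 90.85 kb stands out in Col6a6, and in Col13a1 most regions inside the gene, an internal start site included, lie lower in Enl-T1 while those around its first start do not.

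The highest region of nephron progenitor-like nuclei overlapped an exon of Col24a1 (chr3:145356562-145357603), with 1.06 CPM in Enl-WT and 6.40 CPM in Enl-T1, from 21 and 243 counts, a log2 ratio of 2.59 [1.64, 3.57]. In the shared cluster this region had 19 Enl-WT counts and 0 Enl-T1 counts, so it has no ratio there. The upper limit of its interval was 3.41, so the 90 Enl-T1 nuclei of that cluster cannot show whether the ratio of the class holds within it. The start region of Col24a1 was at 8.02 and 14.8 CPM, a ratio of 0.89. A Col25a1 region overlapping an exon (chr3:130481114-130482054) was at 4.09 and 9.42 CPM (1.20) but at -0.77 [-6.12, 1.78] in the shared cluster, and an intronic Col5a1 region (chr2:27915731-27916822) was at 1.87 and 4.24 CPM (1.18), with 1.95 [-0.49, 3.68] in the shared cluster.

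The lowest were a Col6a6 region within 2 kb of an alternative start (chr9:105811051-105812285), at 7.97 and 2.24 CPM (-1.83 [-2.39, -1.26]), a Col13a1 region overlapping an exon (chr10:61919898-61921501), at 19.8 and 5.90 CPM (-1.75 [-2.09, -1.40]), and a Col27a1 region overlapping an exon (chr4:63233601-63234724), at 11.2 and 3.55 CPM (-1.66). In the shared cluster the first had a ratio of -0.73 [-3.80, 1.17] the second -0.44 [-1.90, 0.71] and the third -0.22 [-2.12, 1.18], with intervals that held 0.

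Col13a1 (chr10:61838236-61979108), a transmembrane collagen of cell adhesion sites, differed along its length in nephron progenitor-like nuclei. Of the 4 regions near its start sites, those around the first start were at 19.9 and 25.5 CPM (0.36 [0.12, 0.61]) and 9.18 and 13.3 CPM (0.54) in Enl-WT and Enl-T1, with a further one at a ratio of 0.10. The last, over an internal start site, was at 14.6 and 5.29 CPM (-1.46 [-1.84, -1.08]). Among the other regions inside the gene, 3 of the most open, chosen after their values were seen, were at 25.1 and 10.9 CPM (-1.21), 35.3 and 18.7 CPM (-0.92) and 43.8 and 29.5 CPM (-0.57). In the class as a whole the start sites of the gene thus differed among themselves, but the 2 libraries lay in different clusters there. Within the shared cluster the whole gene had a ratio of 0.10 [-0.17, 0.38]. Values within that cluster are not given for the regions of this paragraph.

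Genes that act on collagens were read from lists. Of the 19 genes of collagen folding and hydroxylation, 0 were past 1.5-fold in stroma-like or nephron progenitor-like nuclei, with medians of -0.09 and -0.05. In stroma-like nuclei the ends of the list were P4ha2, a subunit of prolyl 4-hydroxylase, at 0.14, Colgalt2, a collagen galactosyltransferase, at 0.13, Plod3, a lysyl hydroxylase, at 52.6 and 39.2 CPM (-0.43), and P4ha3 at 33.0 and 24.3 CPM (-0.44). Among nephron progenitor-like nuclei they were Colgalt2 at 0.25, P4ha2 at 0.21, P4ha3 at -0.24 and Creb3l1, a secretory pathway transcription factor, at -0.32.

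Of the 14 genes of propeptide processing and cross-linking, 13 were measured and 0 were past 1.5-fold in either class, with medians of 0.02 and -0.12. Bmp1 and Tll1, proteinases that trim procollagen, had the highest ratios in stroma-like nuclei, at 0.14 and 0.13, and Loxl4 and Loxl1, lysyl oxidase-like enzymes, the lowest, at -0.30 and -0.32. For nephron progenitor-like nuclei Tll1 and the transglutaminase Tgm2 were highest, at 0.49 and 0.23, and Adamts14 and Loxl1 lowest, at -0.31 and -0.42. Loxl1 was thus the lowest of its list in both classes.

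Proteoglycans and glycoproteins of fibrils held most of the calls. In stroma-like nuclei 1 of 17 measured genes was higher and 1 lower, beside 0.962% and 0.802% of all genes, with a median of -0.06: Lum, a small leucine-rich proteoglycan, at 14.3 and 23.1 CPM (0.69 [0.46, 0.93]), and Ogn, of the same family, at 14.4 and 9.35 CPM (-0.62 [-0.91, -0.33]). Prelp at 0.14 and Comp at -0.37 were next. In nephron progenitor-like nuclei 3 of 15 were past 1.5-fold lower and 0 higher, beside 2.71% and 2% of all genes, with a median of -0.21. Dcn, the proteoglycan decorin, was at 23.5 and 9.40 CPM (-1.32 [-1.61, -1.03]), the collagen-binding protein Sparc at 129.9 and 76.1 CPM (-0.77 [-0.88, -0.66]), and fibrillin-1 (Fbn1) at 82.2 and 50.8 CPM (-0.69 [-0.83, -0.56]). Fn1, fibronectin, was highest there at 25.6 and 37.7 CPM (0.56), followed by Thbs2 at 0.40.

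Of 12 collagen receptors 10 were measured, and 0 were past 1.5-fold in stroma-like or nephron progenitor-like nuclei, with medians of -0.05 and -0.10. The integrin chain Itga2 and the receptor kinase Ddr1 had the highest stroma-like ratios, at 0.34 and 0.18, and Ddr2 and Itga10 the lowest, at -0.15 and -0.10. In nephron progenitor-like nuclei Ddr2 and Itga1 were highest, at 0.38 and 0.32, and Mrc2, a collagen uptake receptor, and Itga2 lowest, at -0.41 and -0.35. Of the 12 genes of collagen degradation, 8 and 7 were measured, with 0 past 1.5-fold and medians of 0.03 and -0.08.

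Of the regulators of collagen genes 17 were measured, with medians of 0.00 in both classes. In stroma-like nuclei 1 was past 1.5-fold higher, beside 0.962% of all genes, namely Sox6, a partner of Sox9 in cartilage, at 76.3 and 116 CPM (0.61 [0.51, 0.71]), and Sox9 followed at 0.35. The lowest were Twist1 at -0.21 and Runx2 at -0.14. Sox9 at 0.43 and Sox6 at 0.40 were highest in nephron progenitor-like nuclei, and Tgfbr2 at -0.23 and Scx at -0.21 lowest. The cartilage targets Col2a1, Col9a1 and Col11a1 had stroma-like ratios of 0.06, 0.14 and -0.01 beside these.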

How the data were processed

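Cut counts per peak and barcode were deposited by the authors for each library, made with Cell Ranger ATAC 2.1.0 on mm10 per the labels, with peaks called in each library. The deposited counts are raw: 80.1% (Enl-WT) and 81.2% (Enl-T1) of values are exactly 2, so a fragment was taken as 2 counts. The study further filtered nuclei by fragments, share in peaks, blacklist share and enrichment at start sites. Here barcodes with 2000 to 100000 counts were kept and no doublets were removed.

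Overlapping peaks of Enl-WT and Enl-T1 (1 base or more) were joined into 110665 shared regions, a gene took those over its body and 2 kb upstream, and 2 collagen regions also lie in the window of another gene (Slc19a1 for Col18a1, Phykpl for Col23a1). Enl-WT had 159560 peaks over 161.581 Mb and Enl-T1 130027 over 118.646 Mb, so peaks found in 1 library took no part. Nuclei were clustered by latent semantic indexing over 110282 regions (components 2 to 30, 15 neighbours, Leiden resolution 1). Clusters were named where a marker list lay at least 0.4 above the median cluster on the log2 scale. At least 3 markers had to be raised by 0.5 at 5 CPM or more. A lead of 0.1 over the next list of another lineage was also needed. Further rules left some clusters that met these limits unnamed. Clusters of 112 Enl-WT and 154 Enl-T1 nuclei and of 53 and 61 were unnamed for their share of counts in top regions. A cluster of 77 and 51 was unnamed because markers of another class led. Named clusters are "-like" because no deposited annotation was used. Markers of another list are given beside the results.

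Ratios carry exact conditional 95% intervals on fragments. The study compared nuclei by Fisher's exact test, which was not used here because nuclei of 1 library are not replicates. The calculation of ratios and intervals was run on simulated fragment counts, drawn from stroma-like levels with known fold changes. The simulation held counting error only. It therefore cannot show how differences between libraries, in depth or in clusters act on the ratios. Genes named in each class were the 4 highest and 4 lowest ratios and 17 genes chosen for their roles; of each list, the 2 highest and lowest, and of regions, the 3 highest and lowest in 2 classes. Fbn1 was named in addition, after its value was seen. The members, lists, markers and naming rule were chosen with earlier results of these data known. The connective tissue growth factor gene was listed under 2 symbols and measured as Ccn2, so the regulators number 17 genes, and Mmp1a was not found in the annotation. Alternatives covered scaling, thinning to 2000 counts per nucleus, the fragment minimum, regions, start site windows, depth, clustering, doublets and naming. Tools were Python 3.11.15, NumPy 2.4.6, SciPy 1.17.1, scikit-learn 1.9.0, igraph 0.11.9, leidenalg 0.10.2 and Matplotlib 3.10.9.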

Additional observations from a re-analysis of the deposited data

Results flagged for a closer look

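For 5 collagen genes the counting intervals of the Enl-T1 to Enl-WT ratio lay on opposite sides of 0 in different classes of nuclei. With 1 library per group the difference between classes was not tested, and the shallow cluster of endothelial-like nuclei and the different clusters of nephron progenitor-like nuclei bear on these values. Col6a6 had log2 ratios of 0.33 in stroma-like, -0.22 in nephron progenitor-like and 0.95 in endothelial-like nuclei. Col6a4, from the same family and the same stretch of chromosome 9, had -0.36, -0.79 and 0.79 in those classes. Col5a3, a chain of collagen V, had -0.14, -0.35 and 0.41. Col26a1 had -0.18, -0.33 and 0.24. Col15a1 had -0.33 in nephron progenitor-like nuclei, with 0.22 and 0.35 in the ureteric epithelium-like and endothelial-like classes. In the stroma-like clusters with at least 50 nuclei of each library, the ratios of Col6a6 and Col6a4 were smaller, at 0.25 and -0.17.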

How the results depend on the processing

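Each group was 1 library, so variation between kidneys, depth and genotype cannot be told apart. No paired analysis was possible because each group has 1 library and no test was run. Across the alternatives the number of collagen genes highest in stroma-like nuclei was 19 to 23 for Enl-WT and 18 to 24 for Enl-T1. The median ratios spanned -0.07 to 0.06 (stroma-like), -0.08 to 0.10 (nephron progenitor-like), -0.0035 to 0.10 (ureteric epithelium-like) and 0.02 to 0.35 (endothelial-like). As shares of nuclei thinned to 2000 counts, which left out 36 and 62 nuclei, the medians were -0.072 in stroma-like nuclei (all genes -0.09) and 0.020 in endothelial-like nuclei (all genes -0.18). The median ratio over all endothelial-like regions was -0.11, and scaling by it in place of the total moved the collagen median there to 0.30; no count in stroma-like or nephron progenitor-like nuclei moved.

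The count past 1.5-fold higher in stroma-like nuclei, 1 as reported, was 0 with thinned nuclei, 4 with every peak of a library and 0 in clusters with at least 50 nuclei of each library. The count lower, 0 as reported, was 2 with every peak and 1 in start site windows. In nephron progenitor-like nuclei the count higher, 1 as reported, was 0 with thinned nuclei, with at least 5000 counts per nucleus, with collagen regions in the clustering and with libraries clustered alone, 2 in start site windows, and 4 with every peak and in clusters of both libraries. The count lower, 1 as reported, was 2 with thinned nuclei and 4 with every peak. In endothelial-like nuclei the count higher, 3 as reported, was 1 with thinned nuclei, with at least 5000 counts and with libraries clustered alone, 0 in start site windows and without the shallow cluster, and 9 with every peak, which also gave 2 lower. The shares of all genes past the mark are not given for these alternatives. The counts therefore show only how the calls moved, not whether collagen genes stood out.

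Some single ratios changed sign. In start site windows Col26a1 in stroma-like nuclei was 0.18, Col6a4, Col12a1 and Col13a1 in nephron progenitor-like nuclei were 0.039, -0.10 and 0.037, and Col17a1 in ureteric epithelium-like nuclei was -0.0035. In clusters of both libraries, nephron progenitor-like Col6a1 was 0.00031, Col6a4 0.044, Col6a5 0.99, Col12a1 -0.28 and Col13a1 0.10. With every peak, endothelial-like Col15a1 was -0.59 and ureteric epithelium-like Col28a1 -1.09. The cause was not tested. Leaving out the shallow endothelial-like cluster and keeping clusters of both libraries were chosen after seeing the data.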
